A study of Mus musculus with 14 samples.

Results

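Calcium handling genes encode the machinery that couples the electrical signal of a muscle fiber to contraction, together with the channels, pumps and calcium-dependent enzymes that shape the calcium signal of other cells. The 48 genes examined here were chosen by name as parts of this machinery. A gene was counted through every listed peak that the authors' annotation had given to it, and 87 of 10303 peaks in the 12 lists belonged to 32 of the 48 genes, among 4384 genes named in all. The other 16 had no listed peak and were counted as not bound.

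The peaks come from chromatin immunoprecipitation and sequencing (ChIP-seq) with an antibody to either MyoD or MyoG, which switch on muscle genes, in mouse muscle stem cells (MuSCs). The animals, labeled wild-type, carried a mito-Dendra2 allele, which encodes a fluorescent mitochondrial protein, under the control of the Pax7-Cre(ERT2) driver. They had received tamoxifen (75 mg/kg, once daily for 5 days). Activated cells (ASCs: CD34-, Dendra2+, DAPI-) were sorted 2 days after injury of the tibialis anterior muscle with 50 µL of 1.2% BaCl2. Quiescent cells (QSCs: CD34+, Dendra2+, DAPI-) came from the saline-injected contralateral muscle, so the groups differ in injury and in the CD34 gate together. Each factor was profiled in ASCs and in QSCs with 3 libraries, which makes 4 groups, and 2 input libraries were not analysed here. The number of animals per library, and whether they were pooled, is not given in the sources used here.

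In a resting fiber, the voltage sensor of the T-tubule membrane faces the ryanodine receptor, the release channel of the sarcoplasmic reticulum (SR). Depolarization moves the sensor, the receptor opens, and the released calcium triggers contraction until SERCA pumps return it to the SR, where calsequestrin holds it. Stem cells lack this apparatus and rely on inositol trisphosphate receptors and store-operated entry, while calcineurin and calmodulin-dependent kinases carry the signal to the nucleus. MyoD and MyoG bind E-boxes, short DNA elements of the form CANNTG.

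Sequence was at hand for the promoters of 32 of the 48 genes, as RefSeq windows on GRCm38.p6, the assembly that mm10, the build of the peak lists, stands for. Of the 11 genes with an ASC MyoD peak annotated as promoter, 6 had such a window. The 250 bases before the transcription start site (TSS) are shown for the 3 genes whose window lay under a MyoD peak, and for Atp2a1 and Ryr1, whose peaks lay beside it. Capitals mark each CANNTG match, 5′ to 3′ on the strand of the gene.

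Cav3, chr6:112459255-112459504, plus strand, under a peak in 1 library: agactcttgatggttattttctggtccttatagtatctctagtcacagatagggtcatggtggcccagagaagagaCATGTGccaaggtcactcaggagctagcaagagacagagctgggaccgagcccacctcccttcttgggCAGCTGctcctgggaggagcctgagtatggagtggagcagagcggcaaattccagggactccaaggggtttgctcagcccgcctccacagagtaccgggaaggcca
Homer1, chr13:93307784-93308033, plus strand, under a peak in 1 library: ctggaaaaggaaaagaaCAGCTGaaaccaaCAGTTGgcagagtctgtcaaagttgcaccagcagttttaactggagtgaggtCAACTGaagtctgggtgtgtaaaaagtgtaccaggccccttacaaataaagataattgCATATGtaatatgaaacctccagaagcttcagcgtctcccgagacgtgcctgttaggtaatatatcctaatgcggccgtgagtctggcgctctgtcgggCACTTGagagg
Rcan1, chr16:92466170-92466419, minus strand, under a peak in 2 libraries: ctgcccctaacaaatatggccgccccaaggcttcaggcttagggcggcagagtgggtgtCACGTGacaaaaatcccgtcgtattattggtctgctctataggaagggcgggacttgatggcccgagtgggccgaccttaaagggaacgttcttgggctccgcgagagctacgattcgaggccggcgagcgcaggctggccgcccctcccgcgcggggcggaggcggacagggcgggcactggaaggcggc
Atp2a1, chr7:126463074-126463323, minus strand, 569 to 669 bp from peaks in 3 libraries: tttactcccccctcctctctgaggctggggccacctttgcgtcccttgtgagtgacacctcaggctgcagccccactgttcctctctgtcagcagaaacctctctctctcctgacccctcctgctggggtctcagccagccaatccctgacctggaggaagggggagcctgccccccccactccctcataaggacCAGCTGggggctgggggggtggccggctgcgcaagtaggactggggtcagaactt
Ryr1, chr7:29125152-29125401, minus strand, 575 to 731 bp from peaks in 3 libraries: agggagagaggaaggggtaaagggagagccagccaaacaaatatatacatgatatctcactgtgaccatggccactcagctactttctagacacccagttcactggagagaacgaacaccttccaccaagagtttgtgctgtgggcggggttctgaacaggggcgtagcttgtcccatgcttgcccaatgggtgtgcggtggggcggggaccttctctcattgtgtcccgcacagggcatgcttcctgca

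The window of Homer1 held 5 E-boxes, of which 1 was CAGCTG. That of Cav3 held 2, including 1 CAGCTG, and that of Atp2a1 held 1, also CAGCTG. The single E-box in the Rcan1 window read CACGTG, and the Ryr1 window had none. Over the 39 windows of the 32 genes, 66.7% held CANNTG on either strand, against 66.2% of all 32851 windows of the same length. CAGCTG, a subset of CANNTG, was in 28.2% (11 of 39), against 13.0% of all windows and 38.0% of the 166 windows that overlapped a recurring ASC MyoD region of any gene. CAGGTG or CACCTG, also forms of CANNTG, was in 15.4%, against 17.2% of all windows. The AP-1 element TGANTCA was in 2.56% (1 of 39), against 6.75%. A window of this size cannot speak for the intronic and distal regions described below, whose sequence was not used here.

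MyoD peaks at calcium handling genes were frequent in ASCs, and the 6 QSC libraries listed none. A gene was called bound in a group when at least 2 of its 3 libraries had a peak given to it. In ASC MyoD, 20 of 48 genes were bound (41.7%, 95% Wilson interval 28.8% to 55.7%, which covers counting error only), against 6.34% of the 21900 protein-coding genes of the RefSeq table. Of the 20, 16 had a peak in all 3 libraries and 4 in 2, while 12 further genes had a peak in a single library. The voltage sensor subunits Cacna1s and Cacna2d1, the release channels Ryr1 and Ryr3, and the SERCA pump Atp2a1 were among the 16. As the list was assembled with earlier results of these data known, the share is a description.

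The bound share was above that of all genes in both length classes. Long genes offer more room for peaks, and the listed genes were long, with a median of 63.9 kb against 17.1 kb over all protein-coding genes. Of the 29 listed genes of 50 kb or more, 15 were bound (51.7%), against 16.0% of all genes of that length. Of the 19 shorter genes, 5 were bound (26.3%), namely Cacng1, Atp2a1, Jsrp1, Stac3 and Sln, against 3.52%. All 32 calcium handling genes named in any of the 12 lists entered through an ASC MyoD peak. The share of them that was bound (20 of 32, 62.5%, against 39.4% of all 4384 named genes) is therefore given as a description, and nothing is read from it.

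**Figure D1:**
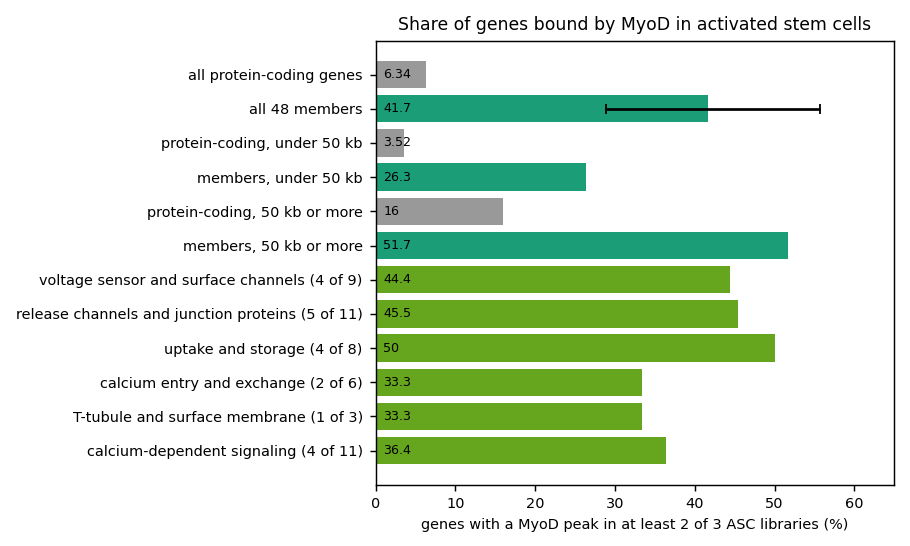
Horizontal bars give the percent of genes with a MyoD peak in at least 2 of the 3 ASC libraries, for protein-coding genes (grey), the calcium handling genes (dark green, with the 95% Wilson interval for all 48) and their roles (light green). The 48 genes stand at 41.7% against 6.34%, and the roles lie between 33.3% and 50.0%.

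The contrast between ASCs and QSCs asked which genes had a MyoD peak in ASCs and none in QSCs. All 20 genes bound by MyoD in ASCs lacked a QSC MyoD peak (41.7%, against 6.15% of all protein-coding genes with a peak in at least 2 ASC and no QSC library). Over all protein-coding genes, 1346 of the 1388 bound by MyoD in ASCs also lacked one, so this lack is near the background. The 16 listed genes with a peak in all 3 ASC and no QSC library made up 33.3% of the 48, against 3.76% of all protein-coding genes. For each of these 16, the two-sided Fisher's exact p on libraries was 0.1, the smallest that 3 against 3 allows, and 0.427 after Benjamini-Hochberg adjustment over 4384 genes, so none could pass 0.05. QSC MyoD lists were short, with 139 to 174 peaks against 2262 to 2652 in ASC MyoD, and bound only 0.0731% of all protein-coding genes. The absence of the 48 genes from them is therefore near the background. In QSC MyoG, with 120 to 167 peaks, 0 of the 48 genes and 0.0502% of all genes were bound. Sequencing depth is unknown, and a larger share of cells bound cannot be told apart from stronger binding in each cell.

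ASC MyoD libraries 1, 2 and 3 held 27, 31 and 25 peaks at the listed genes (27.7 ± 3.06, SD, n = 3), at 20, 25 and 23 genes. This was 1.02%, 1.37% and 1.09% of the peaks of each library (1.16% ± 0.186). In ASC MyoG the libraries held 1, 1 and 2 such peaks, which was 0.109%, 0.165% and 0.313% of 916, 605 and 639 peaks. The ranges of the ASC MyoD and ASC MyoG libraries did not overlap, in number or in percent. How other sets of genes differ between these libraries was not computed, so nothing is read from this separation.

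**Figure D2:**
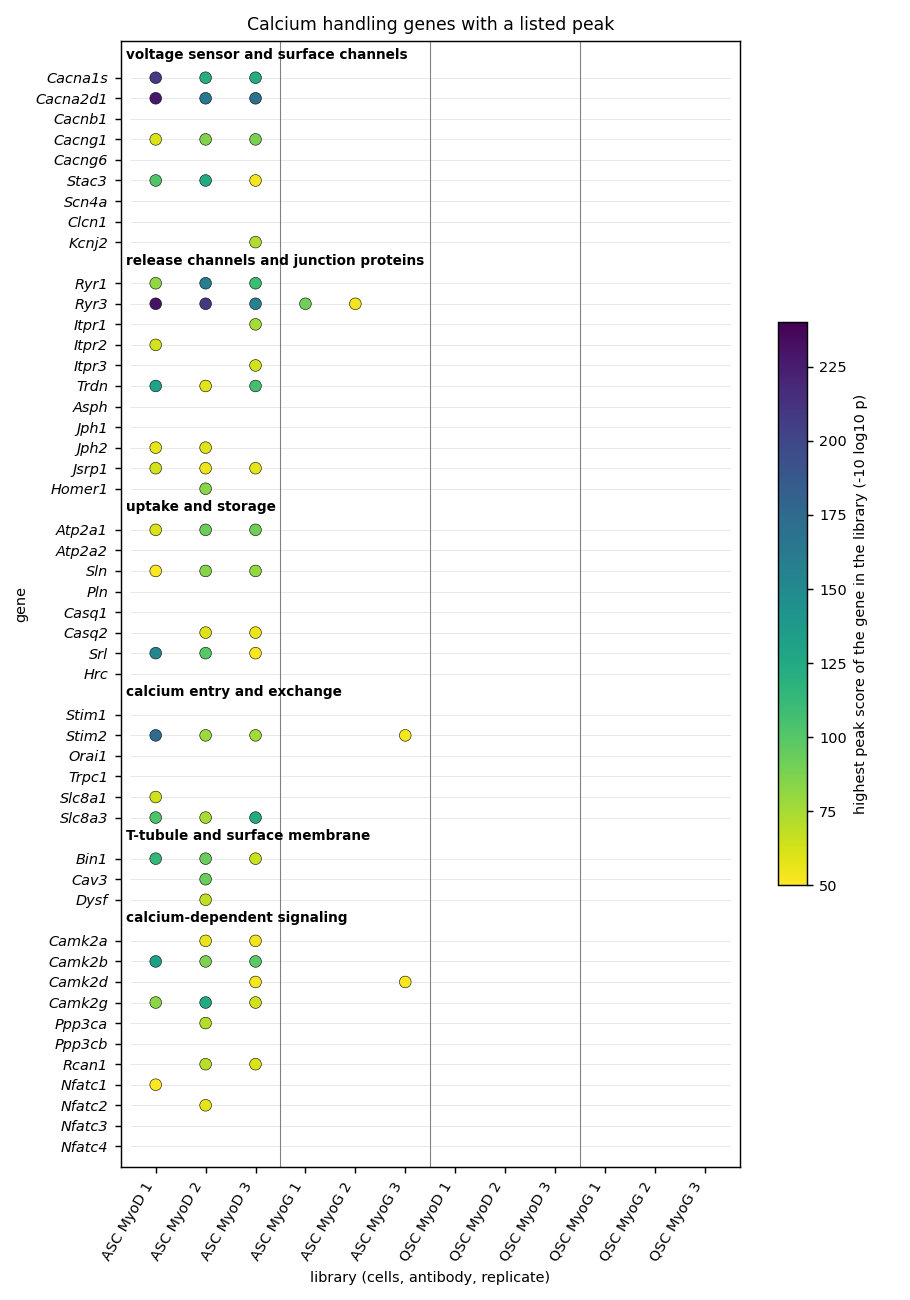
Each row is a calcium handling gene, grouped by role, and each column a library. A dot marks a listed peak and its color the highest score of the gene in that library (the score is defined in the text). Peaks fill the ASC MyoD columns, 4 dots appear in ASC MyoG, and both QSC groups are empty.

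Peaks that overlapped between libraries were merged, and a region with peaks from at least 2 of the 3 libraries was called recurring. ASC MyoD had 21 recurring regions at 19 of the 20 bound genes, of 1985 over all genes. Jph2 was the exception among the 20: its peaks in libraries 1 and 2 lay in introns 2 and 1, at separate places. No peak of the other 3 groups overlapped any of the 21, whatever gene it had been given to. Recurring regions were far fewer in those groups, from 10 to 221 per group. How many of all 1985 regions were likewise free of overlap was not computed, so nothing is read from this absence. Among the 21 regions, 16 had a peak in all 3 libraries (76.2%, against 55.8% of all 1985), and the regions averaged 1.11 per gene against 1.23. The score of a peak is 10 times the negative log10 of its p-value in its own library, with 50.0 the lowest listed. The median of the regions' mean scores was 90.7, against 82.3 over all regions. To set libraries of unlike depth on a common footing, each score was also ranked within its list, and the median mean percentile was 57.2 against 55.7. By this measure the regions ranked much like those of other genes.

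**Figure D3:**
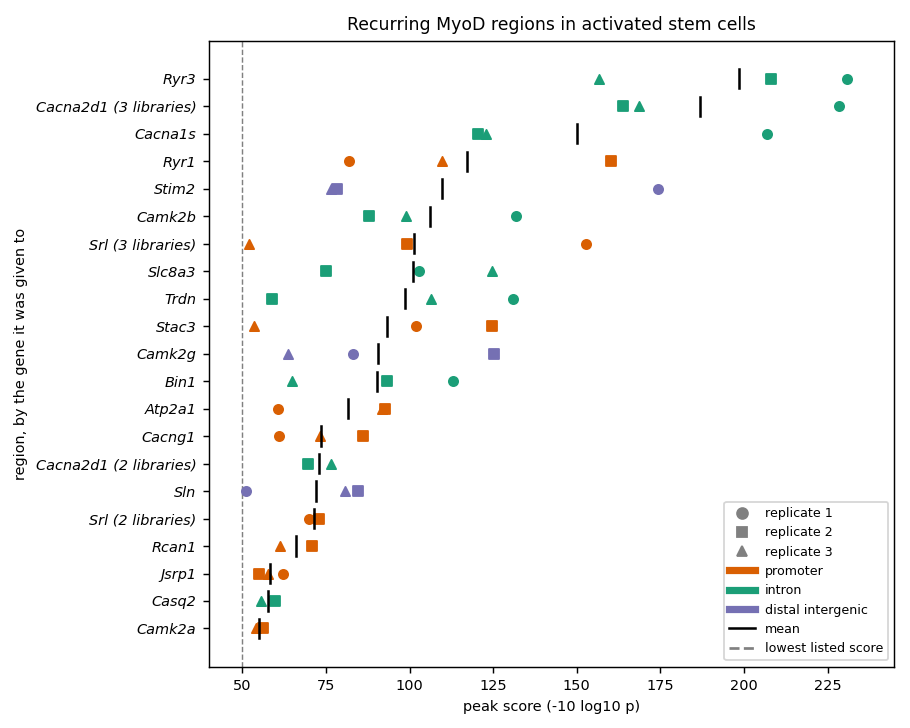
Peak scores of the 21 recurring ASC MyoD regions at calcium handling genes, 1 symbol per library, colored by gene part, with a black bar for the mean over the libraries that have a peak. Mean scores run from 55.1 at Camk2a to 199 at Ryr3, and the dashed line marks the lowest listed score of 50.0.

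By the authors' annotation, 9 of the 21 regions lay at promoters (42.9%, 95% Wilson interval 24.5% to 63.5%), 9 in introns and 3 in distal intergenic sequence (14.3%, interval 4.98% to 34.6%). Over all 1985 regions, 22.6% were at promoters, 35.4% in introns and 35.5% distal intergenic. Under other settings, the promoter share of the listed genes' regions ran from 30.8% (score at least 80) to 50.0% (no distal peaks). The shares of all regions under those settings are not given here. With promoter peaks alone, 8 of the 48 genes were bound (16.7%), against 1.64% of all protein-coding genes. The strongest regions were not those at promoters. Intronic regions had mean scores of 57.7 to 199 (median 101), promoter regions of 55.1 to 117 (median 73.4) and distal regions of 72.1 to 110 (median 90.7). Over all genes, the medians for introns and promoters were 82.1 and 82.8.

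**Figure D4:**
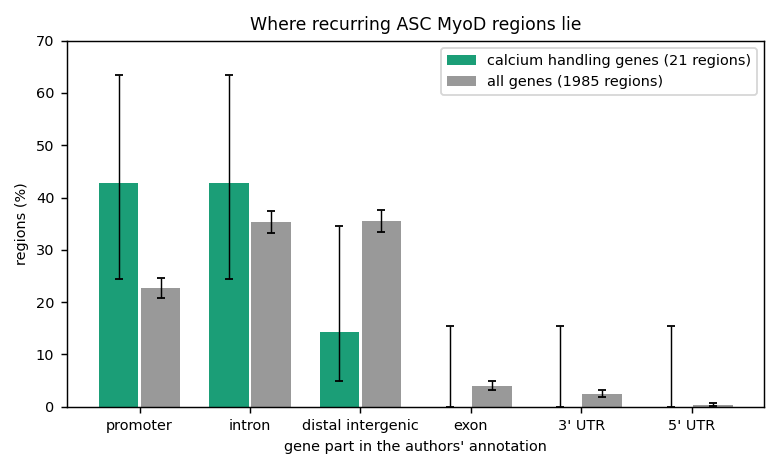
Bars give the percent of recurring ASC MyoD regions in each gene part, for calcium handling genes (green, 21 regions) and all genes (grey, 1985 regions), with 95% Wilson intervals. Promoter regions make up 42.9% against 22.6%, and distal intergenic regions 14.3% against 35.5%.

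Among the 9 genes of the voltage sensor and surface channels, 4 were bound by MyoD in ASCs, all in 3 of 3 libraries. Cacna1s (ENSMUSG00000026407), the pore-forming voltage sensor itself, had a region in intron 2 of 43 (chromosome 1, 136066337 to 136067366), about 14 kb after the RefSeq TSS. Its scores were 207, 120 and 123 in libraries 1, 2 and 3 (150 ± 49.3, SD, n = 3), a mean percentile of 87.2. All of these scores lay above the library medians, which ran from 68.9 to 75.1, and library 1 stood apart.

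Cacna2d1 (ENSMUSG00000040118), the auxiliary subunit that helps bring the channel to the surface, held 2 recurring regions in intron 1 of 38. The stronger (chromosome 5, 15971448 to 15972590) scored 228, 164 and 169 (187 ± 35.9), a mean percentile of 93.3. A weaker region (15966607 to 15967557) had peaks in libraries 2 and 3, with scores of 69.5 and 76.5. Library 1 alone added peaks in introns 3, 6 and 8 and 1 distal peak, at scores of 51.1 to 66.7, so the gene drew 9 peaks in all and only its intron 1 recurred.

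The gene lies beside a multi-copy locus, and its peaks were examined with this in view. In the 1-Mb stretch of chromosome 5 from 15 to 16 Mb, ASC MyoG libraries had 101 peaks and 30 recurring regions, and QSC MyoD libraries had 13 peaks. None of these were given to Cacna2d1. The 5 ASC MyoD peaks of that stretch were all at Cacna2d1. Relative to the start of the gene, the nearest ASC MyoG peak was centered at -222 kb and the nearest QSC MyoD peak at -235 kb, and 254 kb separated the nearest ASC MyoG peak from the recurring regions. The nearest other protein-coding gene, Speer4c, was 252 kb away. MyoD peaks of Cacna2d1 that recurred thus fell inside the gene, and the MyoG peaks in the crowded stretch before it. With that whole stretch left out, Cacna2d1 kept peaks in 1 library and was no longer bound.

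**Figure D5:**
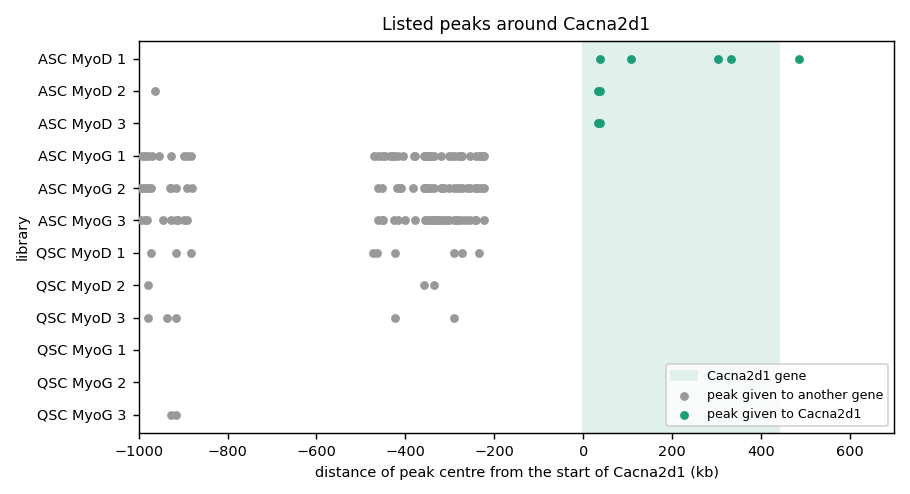
Listed peaks of the 12 libraries by the distance of the peak center from the start of Cacna2d1 in kb, with the gene shaded. The 9 ASC MyoD peaks given to Cacna2d1 (green) lie from 32.8 to 485 kb after its start, while the peaks of ASC MyoG and QSC MyoD (grey) reach no closer than -222 and -235 kb.

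Cacng1 (ENSMUSG00000020722), the gamma subunit of the skeletal muscle channel, had a promoter region (chromosome 11, 107716094 to 107717084) with scores of 60.9, 86.1 and 73.1 (73.4 ± 12.6), and a second promoter peak in library 3 alone (88.0). Stac3 (ENSMUSG00000040287), an adaptor that the sensor needs to engage the release channel, had a promoter region (chromosome 10, 127501233 to 127502211). It scored 102, 125 and 53.3 (93.4 ± 36.5), with library 3 close to the lowest listed score. The region overlapped Stac3, and R3hdm2, another protein-coding gene, lay 1.85 kb away. Kcnj2, an inward rectifier potassium channel, had a distal peak in library 3 alone (72.6), 6.24 kb from the gene. Cacnb1, Cacng6, Scn4a and Clcn1, which encode other channel subunits and the sodium and chloride channels of the fiber surface, had no listed peak.

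Release channels and junction proteins counted 5 bound genes of 11. Ryr1 (ENSMUSG00000030592), the release channel of adult skeletal muscle, had a region annotated as promoter (chromosome 7, 29123477 to 29124577). The scores were 81.8, 160 and 110 (117 ± 39.7), the highest mean among the promoter regions. Peak centers lay 1119 to 1153 bp after the RefSeq TSS, downstream of the sequence printed above, so the region sits within the start of the gene.

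Ryr3 (ENSMUSG00000057378), a release channel isoform of developing muscle and other tissues, carried the region with the highest mean score and rank of the 21. It lay in intron 1 of 102 (chromosome 2, 113115226 to 113116507) and scored 231, 208 and 157 (199 ± 38.1), a mean percentile of 94.2. The nearest other protein-coding gene was 169 kb away. Ryr3 was also the only one of the 48 genes with MyoG peaks in 2 libraries: an exon 82 peak in ASC MyoG library 1 (91.5) and an intron 67 peak in library 2 (54.0). These were separate places, 411 kb or more from the MyoD region, so no MyoG region recurred.

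Trdn (ENSMUSG00000019787), triadin, which links calsequestrin to the release channel, had a region in intron 5 of 37 (chromosome 10, 33179105 to 33180613). Its scores of 131, 58.8 and 106 (98.7 ± 36.7) varied more than those of most regions, with library 2 lowest. Jsrp1 (ENSMUSG00000020216), a junctional SR protein that binds the voltage sensor, had a promoter region (chromosome 10, 80813048 to 80814035) at low but even scores of 62.1, 55.1 and 57.6 (58.2 ± 3.53). Homer1, a scaffold protein, had a promoter peak in library 2 alone (83.9), centered at -222 bp from the TSS of the window printed above. The 3 inositol trisphosphate receptor genes each had a peak in 1 library: Itpr1 in an intron (75.9, library 3), Itpr2 in an exon (62.8, library 1) and Itpr3 distally (62.7, library 3). Asph and Jph1 had none.

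For uptake and storage, 4 of 8 genes were bound. Atp2a1 (ENSMUSG00000030730), the SERCA pump of fast fibers, had a region annotated as promoter (chromosome 7, 126463892 to 126464913). This region lay 0.789 kb from Atp2a1 and 2.08 kb from Sh2b1, another protein-coding gene. Scores were 60.5, 92.6 and 91.7 (81.6 ± 18.3), with peak centers at -1364 to -1236 bp from the RefSeq TSS. The CAGCTG in the printed window therefore lies between this region and the start site and not under the peaks.

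Sln (ENSMUSG00000042045), sarcolipin, a small inhibitor of the pump, had a distal region (chromosome 9, 53835677 to 53836635) 13.6 kb from the gene. Scores were 51.0, 84.5 and 80.8 (72.1 ± 18.4). Slc35f2 was the nearest other protein-coding gene, 17.5 kb away, so the choice of gene rests on a small difference in distance.

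Srl (ENSMUSG00000022519), sarcalumenin, an SR protein that buffers calcium and supports the pump, had 2 regions annotated as promoters of different starts. The stronger (chromosome 16, 4537330 to 4538460) scored 153, 99.3 and 51.9 (101 ± 50.5), the widest relative spread next to that at Stim2. The weaker (4521396 to 4522152) scored 69.9 and 73.0 in libraries 1 and 2. Library 1 also had an intron 1 peak (67.3), so with Cacna2d1 this was the only gene here with more than 1 recurring region.

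Casq2 (ENSMUSG00000027861), the calsequestrin of heart and slow muscle, had a region in intron 1 of 10 (chromosome 3, 102095257 to 102096037) in libraries 2 and 3 (59.8 and 55.6). Casq1, its fast muscle counterpart, had no peak, nor had Atp2a2, Pln or Hrc. Atp2a1 of fast fibers and Casq2 were thus both bound, Casq2 at scores near the lowest listed. With 4 of 8 genes bound, no pattern by fiber type is read from this group.

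Calcium entry and exchange had 2 bound genes of 6. Stim2 (ENSMUSG00000039156), a calcium sensor of the endoplasmic reticulum that opens store-operated channels, had a distal region 20.7 kb ahead of the gene (chromosome 5, 53976260 to 53977839). Its scores were 174, 78.3 and 76.4 (110 ± 56.0), and in library 2 a pair of neighboring peaks fell into it. Library 1 decided the height of the mean. Further distal peaks at this gene appeared in library 2 (64.1 and 57.9), library 1 (54.8) and ASC MyoG library 3 (53.6), each in 1 library.

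Slc8a3 (ENSMUSG00000079055), a sodium-calcium exchanger, had a region in intron 2 of 6 (chromosome 12, 81244298 to 81245252) at scores of 103, 74.9 and 125 (101 ± 25.0). Slc8a1, its relative of the heart, had an intron 1 peak in library 1 alone (63.8). Stim1, Orai1 and Trpc1, the sensor and channel genes of store-operated entry, had no listed peak. As only 6.34% of all protein-coding genes were bound, that these genes were not bound is near the background. The call at Stim2 rests on distal peaks alone, and without them no ASC MyoD library had a peak at it.

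At the T-tubule and surface membrane, Bin1 (ENSMUSG00000024381), which shapes T-tubules, had a region in intron 1 of 18 (chromosome 18, 32390763 to 32391894). Scores were 113, 93.2 and 64.9 (90.4 ± 24.2). Cav3, muscle caveolin, had a promoter peak in library 2 (93.5) centered at -18 bp from the TSS, and Dysf, a membrane repair protein, a promoter peak in the same library (67.6). Neither recurred, although the score at Cav3 was the highest of the 12 genes found in a single library.

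Calcium-dependent signaling counted 4 bound genes of 11, of which 3 were calmodulin-dependent kinase genes. Camk2b (ENSMUSG00000057897) had a region in intron 1 of 20 (chromosome 11, 6036890 to 6037973) with scores of 132, 87.8 and 98.8 (106 ± 22.9). Camk2g (ENSMUSG00000021820) had a distal region 12.0 kb from the gene (chromosome 14, 20806173 to 20807160) with scores of 82.9, 125 and 63.7 (90.7 ± 31.6). Camk2a (ENSMUSG00000024617) had a region annotated as promoter (chromosome 18, 60962933 to 60963904) at 56.1 and 54.1 in libraries 2 and 3, the lowest mean of the 21. The RefSeq gene runs from 60925307 to 60988152, so this region lay inside it and not at either end.

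The fourth kinase gene, Camk2d, had intron 16 and intron 4 peaks in 1 ASC MyoD (52.6) and 1 ASC MyoG library (51.8). All 4 genes of this family thus had a peak in at least 1 ASC MyoD library, at a distal, a promoter or an intronic place depending on the gene. Camk2d itself was not bound, and its peaks lay near the lowest listed score of 50.0. The share of all genes with a peak in at least 1 library was not computed, so nothing is read from the 4.

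Rcan1 (ENSMUSG00000022951), an inhibitor of the phosphatase calcineurin, had a promoter region (chromosome 16, 92465815 to 92466847) in libraries 2 and 3 (70.7 and 61.1), centered at -236 and -136 bp from the TSS of the printed window. Of the calcineurin catalytic genes, Ppp3ca had an intron 1 peak in library 2 (70.9) and Ppp3cb none. Among the NFAT factors that calcineurin activates, Nfatc1 had an intron 1 peak in library 1 (50.8), Nfatc2 a distal peak in library 2 (57.8), and Nfatc3 and Nfatc4 none. Calcineurin and its NFAT targets therefore had no recurring region. As only 6.34% of all protein-coding genes were bound, this lack at a few genes is near the background, and nothing is read from it. Rcan1 itself had no peak at a score of at least 80.

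Scores were lower where a gene was found in a single library. The 12 such genes had 1 peak each, at 50.8 to 93.5 (median 65.7), and 3, 5 and 4 of them came from libraries 1, 2 and 3. Of the 83 ASC MyoD peaks at the 48 genes, 59 fell in recurring regions (71.1%, median score 84.5) and 24 did not (median 63.3). Over all genes the corresponding values were 70.7%, 83.2 and 58.4, so these peaks recurred about as often as those of other genes.

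MyoG peaks at these genes were few. In ASC MyoG, 1 of 48 genes was bound by the criterion of 2 libraries (Ryr3, 2.08%), against 0.489% of all protein-coding genes, and Camk2d and Stim2 had a peak in 1 library each. The same gene and share resulted when no QSC MyoG peak was allowed, against 0.42% of all genes. The comparison of the factors within ASCs found 18 genes with MyoD peaks in at least 2 libraries and no MyoG peak (37.5%, against 5.66%). Ryr3 and Stim2 were the bound genes left out of this count. Over all protein-coding genes, 1239 of the 1388 bound by MyoD in ASCs likewise had no MyoG peak. The lack of MyoG peaks at 18 of the 20 bound genes is therefore near the background. No gene could pass a threshold of 0.05 in Fisher's test of MyoD against MyoG either.

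Other genes of the same pathway, 56 by a list of names, are given for comparison. In ASC MyoD, 9 of 56 were bound (16.1%, against the 6.34% of all protein-coding genes), among them the plasma membrane calcium pumps Atp2b1 and Atp2b4, the channel subunit Cacna2d3, the SR cation channel Tmem38b, the mitochondrial uniporter genes Mcu and Micu2, the buffer Pvalb and the NFAT kinase Dyrk1a. Atp2b1 (ENSMUSG00000019943) had a distal region (chromosome 10, 98882335 to 98883341) with scores of 114, 179 and 114 (136 ± 37.5). Dyrk1a (ENSMUSG00000022897) had an intron 2 region at 116, 71.7 and 59.2 (82.2 ± 29.7). Cacna2d3 was the only one of the 56 with MyoG peaks in 2 ASC libraries. Ryr2, the release channel of the heart, had a MyoD peak in 1 ASC library. Whether the share differs from that of the 48 genes was not tested.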

How the data were processed

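ChIP-seq peak lists of 12 libraries were analysed. The submitters' processing notes name BWA (0.7.5), MACS, deepTools (3.5.0) and the build mm10. The authors called peaks in each library separately and deposited for each peak its start and end (unit: other, a position in bp), a gene, a gene part and a score, 10 times the negative log10 of the MACS p-value. The lowest deposited score was 50.0, a p-value of 1e-05. The MACS version, use of input and filters are not given in the sources used here. Lists hold no reads, so depth is unknown and a fainter peak may be unlisted.

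Groups and replicate numbers were taken from sample titles. Peaks were merged on an overlap of at least 1 bp and tabulated with Python 3.11.15, pandas 2.3.3 and SciPy 1.17.1, and the merging was tested on simulated lists. A library with several peaks in a region contributed its highest score. The background was the RefSeq table of GRCm38.p6, which held 4104 of the 4384 listed gene names and all 48 members. Fisher's exact tests were two-sided. The paper describes the libraries of a group as biological replicates. Fisher's p depends only on how many libraries of each group had a peak, and does not measure the spread of scores between libraries. Members and lists were chosen with earlier results of these data known. Genes were named when bound in at least 2 libraries of a group, and all members were accounted for. An item among the other pathway genes is not reported here. Alternatives were a score of at least 80, no distal peaks, chromosomes 1 to 19 and X, other overlap rules, 1 or 3 libraries, promoters within 1 kb, a block for the replicate number, and each replicate left out in turn. Chosen after seeing the data were leaving out crowded 1-Mb bins (10 or more recurring regions of a group) and requiring the same region.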

Additional observations from a re-analysis of the deposited data

How the results depend on the processing

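Of 107 alternative values for the counts and shares, 26 could not change, since no QSC library had a member peak (QSC counts and left-out QSC libraries). Of the other 81, 64 stayed close to the values given (counts within 1.5 times, shares within the interval, and peaks per library within 1 SD). The 64 include the setting of chromosomes 1 to 19 and X, which could not change a value, since all member peaks lie on those chromosomes. They also include the replicate block for ASCs over QSCs, likewise fixed because QSCs had no member peak. For the same reason, the other counts with no QSC peak allowed repeat those of ASC MyoD and ASC MyoG. The 81 are therefore not separate checks. At a score of at least 80, members bound in ASC MyoD numbered 14 (29.2%, against 2.88% of protein-coding genes), with Casq2, Jph2, Jsrp1, Camk2a and Rcan1 absent from all 3 libraries and Stim2 in 1. The recurring regions fell to 13 and the peaks per library to 12, since fewer peaks enter, and MyoG bound 0 members. Without distal peaks, the peaks per library were 21.7, and 17 members were bound (35.4%, against 4.55%). With a peak in 1 library enough, the counts were 32 for ASC MyoD (also with no QSC peak), 3 for ASC MyoG (likewise) and 29 for MyoD without MyoG. The shares of all protein-coding genes under that looser rule were not computed, so these counts have no background beside them. With all 3 libraries or the same region required, 0 members were bound in ASC MyoG. The MyoG count, which rests on Ryr3, ranged from 0 (without replicate 1 or 2) to 1 when replicates were left out, for both forms of the count. The ASC MyoD count ranged from 16 to 19, and was 19 with the same region required or without crowded bins, where Cacna2d1 loses its recurring regions.

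With the replicate block, pairing same-numbered libraries, the count for MyoD over MyoG was 19 against 18. The counts for ASCs over QSCs were 20 for MyoD and 1 for MyoG. They could not change, since no QSC library had a member peak. The deviations of same-numbered libraries correlated at -0.021 to 0.0217 over 4384 genes, and the numbers were not treated as pairs. QSC libraries named only 104 to 159 genes each, and the labels do not say whether same-numbered libraries share animals, so a pairing is not excluded by these values. Chromosomes 1 to 19 and X changed no member's number of ASC MyoD libraries, and could not, since all member peaks lie on them.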

Other observations

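A peak goes to a single gene in the authors' annotation, so a region near a calcium handling gene can carry another name. In the bodies of the 48 genes and 10 kb around them, 1 recurring ASC MyoD region was given to a gene outside the list. It lay at a promoter of Sh2b1 (ENSMUSG00000030733, chromosome 7, 126465349 to 126466069), 2.25 kb from Atp2a1, and had scores of 69.9 and 108 in libraries 1 and 2. The search was made after the values above had been seen.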
